A study of Mus musculus with 9 samples.

Results

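The expression data were read for 7 genes of the phagocyte NADPH oxidase, namely Cybb, Cyba, Ncf1, Ncf4, Rac1, Rac2 and Hvcn1, which are 7 of the 55536 genes in the table and were chosen by name, with earlier results of these data known. RNA sequencing was done on 9 libraries of mouse leukemia cells, 3 in each of 3 groups. To make the leukemias, c-kit+ hematopoietic cells of WT or IRF7-/- mice were infected with a retrovirus carrying the fusion gene MLL-AF9 and GFP, and both the donor strain and the recipients were C57BL/6J. Recipients aged 6 to 8 weeks received 1000000 GFP+ leukemia cells each with no irradiation, and GFP+ cells were sorted from their bone marrow at day 18. The groups WT c-kit- and WT c-kit+ (drawn with the prefix AML in the plots) are the cells of the WT leukemia without and with surface c-kit, the stem cell factor receptor. The third group carries the label AML-IRF7-/--c-kit+ and is called the labelled knockout libraries here. It holds c-kit+ cells of a leukemia made from mice in which a selection cassette replaces exons 2 and 3 of Irf7. All 3 groups therefore share MLL-AF9, GFP and normal recipients, and in the third group the deletion was already present when the leukemia was made. The leukemia is driven by a retroviral promoter and not by the endogenous MLL gene. The labels do not say whether libraries of a group came from separate mice, so the p-values below measure only the spread between libraries, which may be technical.

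The oxidase moves electrons from NADPH in the cytosol across a membrane to oxygen and so makes superoxide, the first product of the respiratory burst with which neutrophils and monocytes kill microbes. The catalytic chain gp91phox (Cybb) and its partner p22phox (Cyba) sit in the membrane as a heterodimer, and each needs the other to be stable as a protein. On stimulation, p47phox (Ncf1) and p40phox (Ncf4) arrive from the cytosol, a Rac GTPase loaded with GTP binds, and the proton channel Hvcn1 carries out protons to balance the charge.

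Levels are in TPM, a measure of transcript abundance whose values are scaled by transcript length and by the total of a library, so that genes can be compared with each other within a library. Irf7 itself stood at 23.5, 22.3 and 32.3 TPM in WT c-kit- libraries 1, 2 and 3, at 5.31, 3.91 and 3.36 TPM in WT c-kit+, and at 12.8, 5.97 and 7.95 TPM among the labelled knockout libraries. The labelled knockout libraries thus held more Irf7 signal than WT c-kit+ (log2 fold change 0.89, limma adjusted p = 0.0321), which goes against the label of a knockout. A value per gene does not show which exons were read, so it cannot say whether the replaced exons were among them. The paper reports a check of IRF7 in its leukemia models, at the protein level by Western blot and at the RNA level by qRT-PCR. Those assays are not part of the data read here. The labelled knockout libraries keep that name throughout, and every direction drawn from them rests on the label. The comparison of WT c-kit+ with WT c-kit- does not use them. Kit was highest at 3.03 TPM in WT c-kit- and lowest at 50.7 TPM in the c-kit+ libraries, so that it separated the libraries as sorted. Library totals ran from 987468 to 992231 TPM, and Pearson's r between libraries over 13962 genes on the log2(TPM + 1) scale was at least 0.973 within groups and at most 0.932 between them. WT c-kit- library 3 stood apart in neutrophil granule and maturation genes, as given below.

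Promoter sequences show where the letters of binding motifs of myeloid factors lie around the starts of Cybb and Ncf1. These subunits fell most from WT c-kit+ to the labelled knockout libraries, and Cyba, whose level hardly varied, is set beside them. Windows from 250 bases before to 30 bases after the RefSeq start on GRCm38.p6 were found for 3 of the 7 genes, at chrX:9469295-9469574 for Cybb, chr5:134229596-134229875 for Ncf1 and chr8:122432911-122433190 for Cyba, all on the minus strand. The Cybb window lies inside the annotated span of the gene given below. Each is written 5′ to 3′ along the gene, and capitals mark a match on either strand to GAAANNGAA, bound by interferon regulatory factors, or to GAGGAA, the core bound by PU.1.
Cybb: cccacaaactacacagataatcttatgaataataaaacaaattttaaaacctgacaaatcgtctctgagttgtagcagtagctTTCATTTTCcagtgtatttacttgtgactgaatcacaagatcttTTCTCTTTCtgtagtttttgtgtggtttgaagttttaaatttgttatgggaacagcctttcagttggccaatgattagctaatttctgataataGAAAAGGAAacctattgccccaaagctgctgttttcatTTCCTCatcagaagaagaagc
Ncf1: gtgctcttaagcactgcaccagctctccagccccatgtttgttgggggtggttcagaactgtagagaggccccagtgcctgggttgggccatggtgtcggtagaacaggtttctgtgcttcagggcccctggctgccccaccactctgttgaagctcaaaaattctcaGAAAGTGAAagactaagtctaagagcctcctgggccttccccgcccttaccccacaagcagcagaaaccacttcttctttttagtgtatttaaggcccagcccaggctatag
Cyba: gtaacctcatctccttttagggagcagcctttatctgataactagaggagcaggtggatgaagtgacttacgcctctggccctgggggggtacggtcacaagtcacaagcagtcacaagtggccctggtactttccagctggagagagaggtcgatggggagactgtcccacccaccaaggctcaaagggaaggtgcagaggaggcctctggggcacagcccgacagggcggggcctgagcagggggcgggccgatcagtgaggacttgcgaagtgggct
Cybb held GAAANNGAA at 3 places, starting at positions 84, 128 and 222 of the 280 bases, the last of them on the strand of the gene. It held GAGGAA at 1 place, starting at position 260 on the other strand, within the 30 bases past the RefSeq start. Ncf1 held GAAANNGAA at 1 place, starting at position 169 on the strand of the gene, and Cyba held no match. Among 32851 promoter windows of this length, 8.06% held GAAANNGAA and 26.0% held GAGGAA on either strand. The longer PU.1 form GAGGAAGT, which contains GAGGAA, was in 2.82% of the windows and TTNNGCAA, bound by C/EBP factors, in 10.4%, and neither was in these 3 windows. A match says only that these letters are present. Promoters of Ncf4, Rac1, Rac2 and Hvcn1 were not analysed here.

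Cybb, the catalytic chain (ENSMUSG00000015340, GRCm38 chrX:9435252-9487771, minus strand), was the member that varied most. Its level was 371, 293 and 380 TPM in WT c-kit- libraries 1, 2 and 3, 315, 213 and 312 TPM in WT c-kit+, and 16.0, 38.9 and 13.9 TPM among the labelled knockout libraries. The WT groups overlapped, while every labelled knockout library lay far below all 6 WT libraries, library 2 of them being the highest of its group. The mean of the labelled knockout libraries (22.9 ± 13.8 TPM, SD, n = 3) was 8.19% of that of WT c-kit+ (280 ± 58.2 TPM, SD, n = 3). The log2 fold change on the log2(TPM + 1) scale was -3.68 against WT c-kit+ (SE 0.37, 95% interval -4.57 to -2.79, limma adjusted p = 0.000554) and -4.00 against WT c-kit- (SE 0.36, limma adjusted p = 0.000142). Without library 2 of the labelled group these were -4.12 and -4.44. Between WT c-kit+ and WT c-kit- the log2 fold change was -0.33 (SE 0.18, 95% interval -0.75 to 0.10, limma adjusted p = 0.189). No 50-base stretch of Cybb transcripts occurs in another annotated gene, so its reads do not depend on how shared reads were divided.

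Cyba, the partner chain (ENSMUSG00000006519, chr8:122424776-122432930, minus strand), was the most abundant member by its mean in each group and did not pass the test in any comparison. It was at 828, 769 and 964 TPM in WT c-kit-, 856, 717 and 844 TPM in WT c-kit+, and 852, 753 and 927 TPM among the labelled knockout libraries. All 3 groups overlapped. The difference between the labelled knockout libraries and WT c-kit+ had a 95% interval of -0.18 to 0.31 in log2 fold change (limma adjusted p = 0.631), and that between the WT groups one of -0.35 to 0.19 (limma adjusted p = 0.605). Its sign turned with the scaling between libraries in each comparison, so no direction is given. Within a library, the TPM ratio of Cyba to Cybb was 2.23, 2.62 and 2.54 in WT c-kit-, 2.72, 3.37 and 2.71 in WT c-kit+, and 53.3, 19.4 and 66.6 in the labelled knockout libraries. The ratio in each labelled knockout library was above that in all 6 WT libraries (difference of mean log2 ratios from WT c-kit+ 3.74, exact two-sided permutation p = 0.1, the smallest that 3 libraries against 3 allow, adjusted p = 0.1125 over 9 ratio tests).

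**Figure D1:**
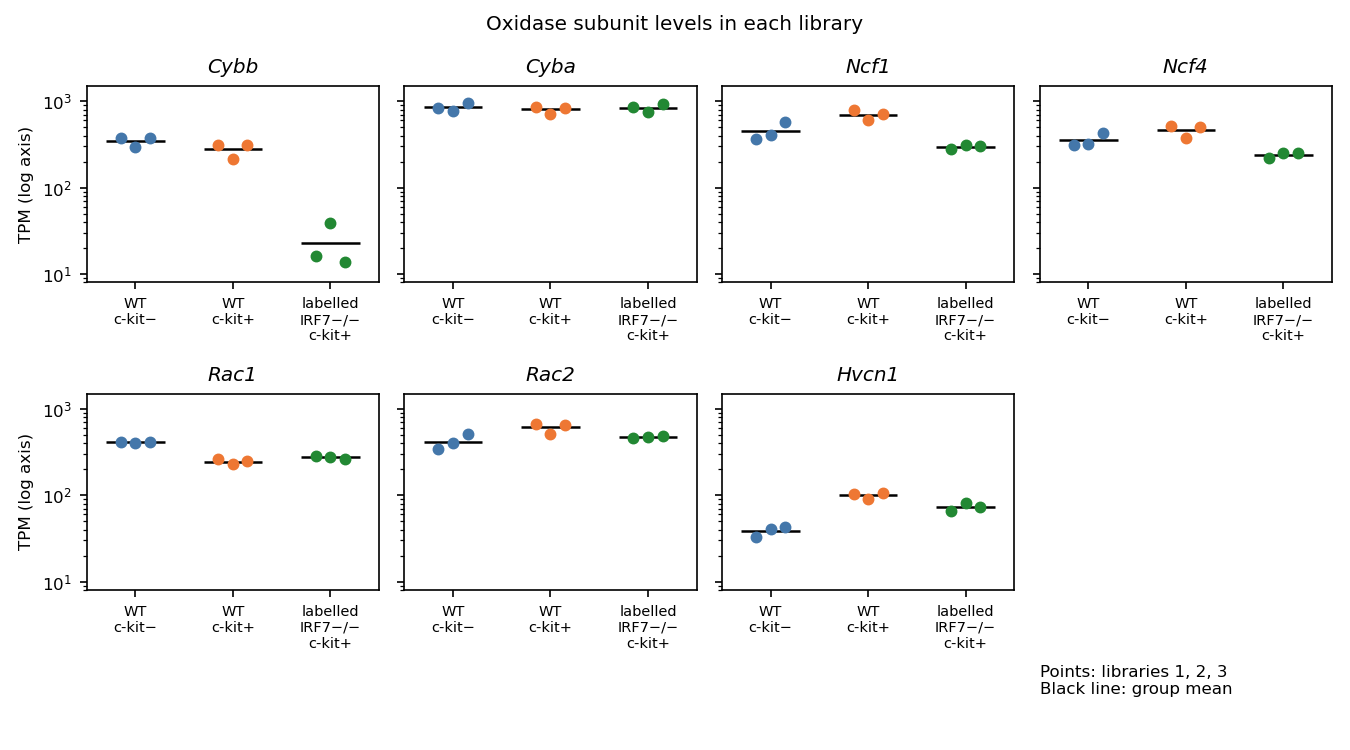
Level of each gene in TPM on a log axis for the 3 libraries of each group (points, libraries 1, 2 and 3 from left to right), with the group mean as a black line. Cybb lies between 13.9 and 38.9 TPM among the labelled knockout libraries and at 213 TPM or above in the WT libraries, while Cyba stays between 717 and 964 TPM in all 9.

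Ncf1 and Ncf4, the cytosolic subunits p47phox and p40phox, were both lower in the labelled knockout libraries than in either WT group. Ncf1 (ENSMUSG00000015950, chr5:134220053-134229625, minus strand) was at 361, 411 and 570 TPM in WT c-kit-, 783, 603 and 705 TPM in WT c-kit+, and 278, 308 and 306 TPM among the labelled knockout libraries. The 3 groups did not overlap, with WT c-kit+ highest and the labelled knockout libraries lowest. Ncf1 rose from WT c-kit- to WT c-kit+ by 0.66 on the log2 scale (SE 0.18, limma adjusted p = 0.0265), a call that was lost with any of 4 single libraries left out (WT c-kit- 1 or 2, WT c-kit+ 1 or 3), at limma adjusted p from 0.0715 to 0.0832. It was lower in the labelled knockout libraries than in WT c-kit+ with a log2 difference of -1.22 (SE 0.10, limma adjusted p = 0.000266), and lower than in WT c-kit- with one of -0.56 (SE 0.16, limma adjusted p = 0.0217, or 0.0687 without labelled knockout library 1). Gtf2ird2 overlaps Ncf1 on the opposite strand and holds 7.26% of its 50-base stretches, and the library kit does not mark strand. Like Ncf1, Gtf2ird2 rose between the WT groups and was lower in the labelled knockout libraries than in WT c-kit+, at means of 22.4, 36.0 and 20.99 TPM. The part of shared reads in the level of Ncf1 was not tested.

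Ncf4 (ENSMUSG00000071715, chr15:78244801-78262580, plus strand) was at 308, 320 and 431 TPM in WT c-kit-, 511, 378 and 508 TPM in WT c-kit+, and 218, 250 and 249 TPM among the labelled knockout libraries. The WT groups overlapped and the labelled knockout libraries lay below both. Its log2 fold change from WT c-kit+ to the labelled knockout libraries was -0.95 (SE 0.13, limma adjusted p = 0.00157), just short of the size of 1 used as the second threshold, and from WT c-kit- it was -0.55 (SE 0.13, limma adjusted p = 0.0116). Between the WT groups it was 0.40 (95% interval -0.0044 to 0.81, limma adjusted p = 0.103). Without WT c-kit- library 3 this became 0.55 (limma adjusted p = 0.0302), and without WT c-kit+ library 2 it became 0.54 (limma adjusted p = 0.0387). It also passed with quantile normalization (0.58, limma adjusted p = 0.0263) and with median centring (0.56, limma adjusted p = 0.0423), so the call depends on the scaling. Of all pairs among the 7 genes, Ncf1 and Ncf4 were closest across the 9 libraries, with a root mean square difference of 0.141 between their centred log2 levels, and the 6 pairs that include Cybb were the farthest apart (1.499 to 2.07). The Ncf1 to Ncf4 ratio in TPM was between 1.17 and 1.59 in every library.

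Rac1 and Rac2, the small GTPases of which Rac2 is confined mainly to blood cells, moved in opposite directions with c-kit. Rac1 (ENSMUSG00000001847, chr5:143503634-143528036, minus strand) was at 419, 405 and 417 TPM in WT c-kit-, 261, 228 and 246 TPM in WT c-kit+, and 284, 277 and 261 TPM among the labelled knockout libraries. Every c-kit+ library of either genotype label was below every WT c-kit- library. Rac1 was lower in WT c-kit+ than in WT c-kit- with a log2 difference of -0.75 (SE 0.07, limma adjusted p = 0.000211) and lower in the labelled knockout libraries than in WT c-kit- with one of -0.59 (SE 0.05, limma adjusted p = 0.000122). Between the c-kit+ groups, which overlapped, it was 0.16 (95% interval -0.00020 to 0.32, limma adjusted p = 0.0909). Daglb lies across Rac1 on the opposite strand and holds 50.3% of its 50-base stretches. Its mean level was 20.8, 30.7 and 26.5 TPM in the 3 groups, and it rose from WT c-kit- to WT c-kit+ (log2 fold change 0.54, limma adjusted p = 0.00856). The part of shared reads in the level of Rac1 was not tested.

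Rac2 (ENSMUSG00000033220, chr15:78559167-78572783, minus strand) was at 340, 398 and 509 TPM in WT c-kit-, 670, 514 and 652 TPM in WT c-kit+, and 463, 474 and 480 TPM among the labelled knockout libraries. The WT groups did not overlap, though WT c-kit- library 3 and WT c-kit+ library 2 nearly met. Rac2 rose from WT c-kit- to WT c-kit+ by 0.57 (SE 0.17, limma adjusted p = 0.0352), and the same 4 libraries as for Ncf1 each ended that call when left out (limma adjusted p from 0.0948 to 0.105). It was lower in the labelled knockout libraries than in WT c-kit+ with a log2 difference of -0.36 (SE 0.10, limma adjusted p = 0.0272). That call was lost in 7 of 14 alternatives, among them leaving out WT c-kit+ library 1 or 3 or any labelled knockout library (limma adjusted p from 0.0633 to 0.0866). Against WT c-kit- the labelled knockout libraries differed by 0.20 (95% interval -0.13 to 0.53, limma adjusted p = 0.242), and by 0.36 (limma adjusted p = 0.0103) without WT c-kit- library 3.

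The balance of the GTPases within a library does not depend on the total of that library. Rac2 was 0.811, 0.983 and 1.22 times the TPM of Rac1 in WT c-kit- libraries 1, 2 and 3, 2.56, 2.26 and 2.65 times in WT c-kit+, and 1.63, 1.71 and 1.84 times in the labelled knockout libraries. The 3 groups did not overlap, and the labelled knockout libraries lay between the WT groups. The mean log2 ratio differed by 1.32 between the WT groups and by -0.52 between the labelled knockout libraries and WT c-kit+, each at an exact two-sided permutation p of 0.1 (adjusted p = 0.1125 over 9 ratio tests). No 50-base stretch was shared between Rac1 and Rac2.

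**Figure D2:**
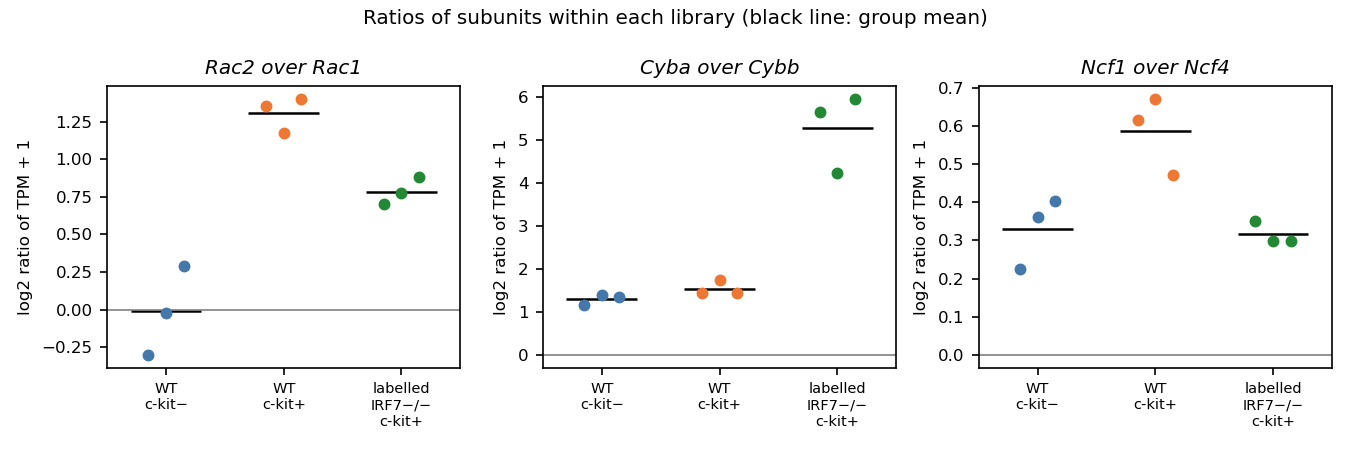
Log2 ratio of TPM + 1 for Rac2 over Rac1, Cyba over Cybb and Ncf1 over Ncf4 in each library (points), with the group mean as a black line and 0 marking equal levels, each panel on its own axis. The mean for Rac2 over Rac1 is -0.01 in WT c-kit-, 1.31 in WT c-kit+ and 0.78 in the labelled knockout libraries, and that for Cyba over Cybb is 1.30, 1.54 and 5.28.

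Hvcn1, the voltage-gated proton channel (ENSMUSG00000064267, chr5:122206804-122242297, plus strand), was the member that rose most with c-kit. It was at 32.8, 40.3 and 43.4 TPM in WT c-kit-, 102, 90.5 and 106 TPM in WT c-kit+, and 66.3, 81.2 and 72.2 TPM among the labelled knockout libraries. The 3 groups did not overlap. The log2 fold change between the WT groups was 1.34 (SE 0.12, limma adjusted p = 0.000197), a 2.57-fold ratio of the means. The labelled knockout libraries were lower than WT c-kit+ with a log2 difference of -0.44 (SE 0.09, limma adjusted p = 0.00899) and higher than WT c-kit- by 0.90 (SE 0.12, limma adjusted p = 0.00085). Tctn1 on the opposite strand holds 39.7% of the 50-base stretches of Hvcn1, at means of 7.78, 6.43 and 9.24 TPM. It did not pass the test between the WT groups (limma adjusted p = 0.22). Unlike Hvcn1, Tctn1 rose from WT c-kit+ to the labelled knockout libraries (log2 fold change 0.46, limma adjusted p = 0.00889). The part of shared reads in the level of Hvcn1 was not tested.

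Set side by side, all 7 genes passed the filter on low values in each comparison. From WT c-kit- to WT c-kit+, 3 rose (Ncf1, Rac2, Hvcn1), 1 fell (Rac1) and 3 did not pass the test at an adjusted p under 0.05, which 14% of 13261 genes passed upward and 27.6% downward. With the further threshold of 1 on the size of the log2 fold change, 1 member was called higher and 0 lower, beside 4.83% and 9.61% of all genes. All genes tested had a median log2 fold change of -0.08 there and the members one of 0.40. Centring each library on its median moved every gene by 0.16 and turned the split of all genes past both thresholds from 641 higher and 1275 lower to 797 and 1027. At an adjusted p under 0.05 alone, the same step turned 1860 higher and 3659 lower into 3053 and 2596, so that more genes were then higher than lower. Relative to the median gene the members that passed stood at 0.74 (Ncf1), 0.65 (Rac2), 1.43 (Hvcn1) and -0.67 (Rac1).

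From WT c-kit+ to the labelled knockout libraries, 0 members rose and 5 fell (Cybb, Ncf1, Ncf4, Rac2, Hvcn1) at an adjusted p under 0.05, against 31.9% of 13238 genes that passed upward and 16.1% downward. Past both thresholds 2 were lower (Cybb and Ncf1) and 0 higher, against 5.39% and 6.3% of all genes. With median centring the split of all genes turned from 834 higher and 714 lower to 727 and 785, and 3 members were past both thresholds, Ncf4 being the added one. The median log2 fold change was -0.44 over the members and 0.12 over all genes tested. From WT c-kit- to the labelled knockout libraries 1 member rose (Hvcn1) and 4 fell (Cybb, Ncf1, Ncf4, Rac1), where 30.7% of 13510 genes passed upward and 28.7% downward. Cybb alone was past both thresholds there, with 8.4% of all genes called higher and 11.9% lower, and the medians were -0.55 over the members and 0.03 over all genes. These comparisons share their groups pairwise, so their counts are not independent of each other.

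**Figure D3:**
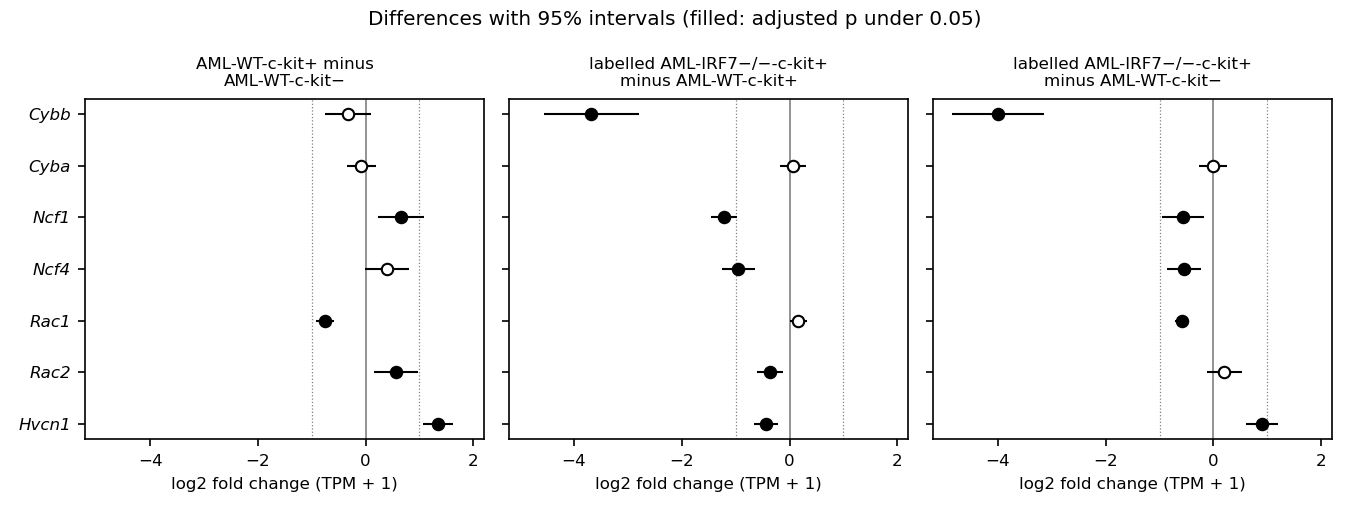
Log2 fold change on the log2(TPM + 1) scale for each gene in the 3 comparisons (points), with 95% intervals from limma as horizontal lines. Filled points have an adjusted p under 0.05 over all genes tested, and dotted lines mark a log2 fold change of 1 in size. Cybb stands at -3.68 and -4.00 in the comparisons with the labelled knockout libraries, and its interval in the WT comparison spans 0.

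The 7 genes together summed to 2658, 2636 and 3315 TPM in WT c-kit-, 3499, 2743 and 3372 TPM in WT c-kit+, and 2177, 2181 and 2309 TPM among the labelled knockout libraries. Cybb made up 14.0, 11.1 and 11.4% of that sum in WT c-kit-, 9.01, 7.75 and 9.24% in WT c-kit+, and 0.734, 1.78 and 0.603% in the labelled knockout libraries. Cyba came first and Hvcn1 last in each WT c-kit- library. The ranges of Ncf1, Rac2, Rac1, Ncf4 and Cybb overlapped there, except that Rac1 lay above Cybb throughout. In WT c-kit+ the ranges of Cyba and Ncf1, of Ncf1 and Rac2, and of Cybb and Rac1 overlapped, those of Rac2 and Ncf4 did not, and Hvcn1 was again last. In the labelled knockout libraries the order was Cyba, Rac2, then Ncf1 and Rac1 with overlapping ranges, Ncf4, Hvcn1 and Cybb.

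Genes outside the oxidase with the most similar profile over the 9 libraries were sought for the 3 members whose group means spanned at least 1 on the log2 scale, among 11057 genes of at least 5 TPM in some group mean. For Cybb these were Dmrtb1 (root mean square difference of centred log2 levels 0.22) and AC132444.5 (0.35). Dmrtb1 stood at 93.9, 115 and 95.04 TPM in WT c-kit-, 92.8, 80.02 and 92.5 TPM in WT c-kit+ and 4.9, 10.1 and 3.81 TPM among the labelled knockout libraries, where library 2 was again the highest. For Ncf1 they were Gm37691 (0.11) and Scp2, the sterol carrier protein (0.13), and for Hvcn1 they were Cdc25a, a phosphatase that activates cyclin-dependent kinases (0.096), and Tmem248 (0.14).

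Of 12 other genes of the NADPH oxidase family and its chaperone, 4 passed the filter on low values and none was past both thresholds in any comparison. Cybc1, the chaperone that the Cybb and Cyba heterodimer needs for its expression, was at means of 125, 83.2 and 93.2 TPM and fell with c-kit (log2 fold change -0.57, limma adjusted p = 0.00218). Between the labelled knockout libraries and WT c-kit+ Cybc1 had a log2 difference of 0.16 (limma adjusted p = 0.0822). Of the other catalytic chains, Nox4 reached 1.04 TPM at most, Nox1 reached 0.23 TPM, Duox1 and Duox2 reached 0.02 TPM or less, and Nox3 was listed at 0 in every library.

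Of 15 regulators of Rac and Rap, 2 rose and 8 fell from WT c-kit- to WT c-kit+, with 1 past both thresholds upward and 2 downward (median log2 fold change -0.36). Vav2 and Prex1, exchange factors that load Rac with GTP, fell with c-kit, from a mean of 25.4 to 5.55 TPM for Vav2 (log2 fold change -2.01, limma adjusted p = 4.01e-05) and from 121 to 32.5 TPM for Prex1 (log2 fold change -1.87, limma adjusted p = 2.06e-05). Dock5, another exchange factor, rose from 13.6 to 31.4 TPM (log2 fold change 1.18, limma adjusted p = 0.00995). From WT c-kit+ to the labelled knockout libraries 5 rose, 4 fell and none was past both thresholds (median 0.11). From WT c-kit- to them, 1 rose and 9 fell, 2 of them past both (median -0.40). Beside these counts, 14% of all genes passed upward and 27.6% downward between the WT groups. The shares were 31.9% and 16.1% from WT c-kit+ to the labelled knockout libraries, and 30.7% and 28.7% from WT c-kit- to them. Medians over all genes were -0.08, 0.12 and 0.03 in that order. The same shares and medians stand beside every list below.

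Of 23 genes of the signaling ahead of oxidase assembly, 22 were tested, and 4 rose and 10 fell from WT c-kit+ to the labelled knockout libraries (median log2 fold change -0.08). The 4 past both thresholds downward included the formyl peptide receptors Fpr1 and Fpr2, through which bacterial peptides trigger the burst, and Pik3r5, a regulatory subunit of PI3-kinase gamma. Fpr2 was at 56.8, 47.6 and 137 TPM in WT c-kit-, 71.8, 37.3 and 79.4 TPM in WT c-kit+ and 1.14, 0.82 and 0.65 TPM among the labelled knockout libraries (log2 fold change from WT c-kit+ -5.03, limma adjusted p = 6.57e-05). Fpr1 fell from a mean of 4.40 to 0.247 TPM (log2 fold change -1.95, limma adjusted p = 0.0115) and Pik3r5 from 25.3 to 6.78 TPM (log2 fold change -1.75, limma adjusted p = 0.00016). The fourth was C5ar1, the C5a receptor, and the 1 called upward was the kinase Btk, at means of 64.2 and 141 TPM (log2 fold change 1.12, limma adjusted p = 2.41e-05), both named after their values were seen. From WT c-kit- to WT c-kit+ 2 of these genes rose and 10 fell, with 1 past both thresholds in each direction (median -0.28). From WT c-kit- to the labelled knockout libraries 3 rose and 14 fell, with 2 and 6 past both (median -0.54). Over all genes, 31.9% passed upward and 16.1% downward from WT c-kit+ to the labelled knockout libraries, with 6.3% and 5.39% past both thresholds.

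Of 16 transcription factors known at oxidase gene promoters, 6 rose and 6 fell from WT c-kit+ to the labelled knockout libraries, and the 2 past both thresholds, Irf8 and Cebpe, were lower (median log2 fold change 0.02). Irf8, an interferon regulatory factor that acts with PU.1 at Cybb, was at 593, 494 and 435 TPM in WT c-kit-, 93.3, 132 and 135 TPM in WT c-kit+ and 28.6, 65.5 and 31.1 TPM among the labelled knockout libraries. The groups did not overlap, and library 2 was the highest of the labelled knockout group for Irf8 as it was for Cybb. The log2 fold change of Irf8 was -1.59 from WT c-kit+ to the labelled knockout libraries (SE 0.32, limma adjusted p = 0.007) and -2.08 from WT c-kit- to WT c-kit+ (SE 0.17, limma adjusted p = 0.00017), a comparison in which Cybb did not pass the test.

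Cebpe, a C/EBP factor of granule maturation, was at 25.5, 27.6 and 70.4 TPM in WT c-kit-, 366, 269 and 334 TPM in WT c-kit+ and 132, 140 and 135 TPM among the labelled knockout libraries. Like Ncf1 it was highest in WT c-kit+, but unlike Ncf1 it was lowest in WT c-kit-. Cebpe differed by 3.09 on the log2 scale between the WT groups (SE 0.37, limma adjusted p = 0.00084) and -1.24 from WT c-kit+ to the labelled knockout libraries (SE 0.11, limma adjusted p = 0.000355). Gfi1, a transcriptional repressor active in the granulocyte lineage, rose from a mean of 10.5 to 159 TPM between the WT groups. It was at 112 TPM among the labelled knockout libraries. Spi1, which encodes PU.1, had a log2 difference of -0.08 (limma adjusted p = 0.362) from WT c-kit+ to the labelled knockout libraries, at means of 307 and 290 TPM, and is named after its values were seen. Over the other comparisons 3 of the 16 rose and 7 fell between the WT groups (2 and 2 past both thresholds, median -0.14). From WT c-kit- to the labelled knockout libraries 6 rose and 7 fell (2 and 5 past both, median -0.0013). Among all genes, 31.9% passed upward and 16.1% downward from WT c-kit+ to the labelled knockout libraries.

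Genes of myeloid maturation moved with the groups, and in sorted bulk cells fewer cells of a type and less RNA per cell cannot be told apart. The 11 neutrophil maturation genes summed to 6559, 8141 and 32271 TPM in WT c-kit-, 113072, 57875 and 86439 TPM in WT c-kit+ and 1745, 2689 and 1713 TPM among the labelled knockout libraries. S100a8 and S100a9 together made up most of this sum in every library. Of the 11, 10 fell past both thresholds from WT c-kit+ to the labelled knockout libraries (median log2 fold change -3.93). Between the WT groups 4 rose (Camp, Ngp, S100a8 and S100a9) and 1 fell (Mmp8) past both (median 1.18). Over all genes 5.39% were called lower in the former comparison, and 4.83% higher and 9.61% lower in the latter. WT c-kit- library 3 was the highest of its group for this sum and for each of the 7 genes except Rac1, and WT c-kit+ library 2 was the lowest of its group for this sum and for all 7 genes. The 8 monocyte genes summed to between 4934 and 5858 TPM in WT c-kit-, 2587 and 2836 TPM in WT c-kit+, and 2993 and 3564 TPM among the labelled knockout libraries. Ly6c2 alone was at means of 2967, 1994 and 2455 TPM in the 3 groups and did not pass between the c-kit+ groups (limma adjusted p = 0.0561). Of these 8, 5 fell past both thresholds between the WT groups. From WT c-kit+ to the labelled knockout libraries 1 rose and 2 fell past both. At an adjusted p under 0.05 alone 2 rose and 4 fell there (median log2 fold change -0.38), so most did not rise as the sum did. The part of these shifts in the levels of the oxidase genes was not tested.

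**Figure D4:**
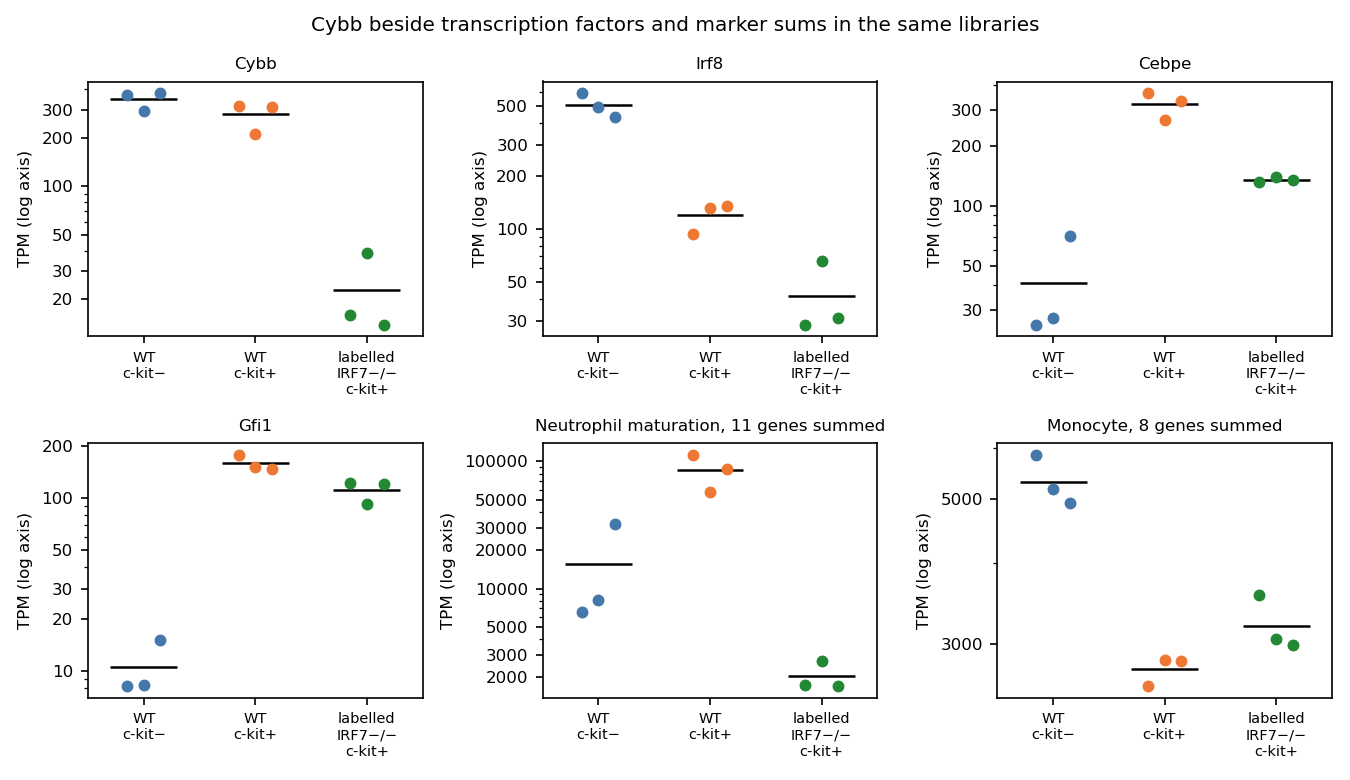
TPM on log axes, each panel with its own range, for Cybb, the transcription factors Irf8, Cebpe and Gfi1, and the summed neutrophil maturation and monocyte genes in each library (points), with the group mean as a black line. Cybb and Irf8 are lowest in the labelled knockout libraries, with library 2 the highest of those 3, and the neutrophil sum falls from at least 57875 TPM in WT c-kit+ to at most 2689 TPM there.

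Apart from progenitor genes, markers of other cell types summed to far less than the neutrophil and monocyte genes, over lists of unequal length. T cell genes summed to at most 1.89 TPM in a library, with 4 of 5 under 1 TPM throughout. B cell genes summed to between 26.4 and 38.1 TPM, nearly all of it from Cd79b, and NK cell genes to at most 8.07 TPM, with 3 of 4 under 1 TPM. Erythroid genes reached 9.75 TPM, megakaryocyte genes 14.5 TPM, eosinophil genes 20.7 TPM, and mast cell and basophil genes 79.2 TPM. Endothelial and stromal genes reached 59.7 TPM, of which Lepr was 58.4 TPM. Dendritic cell genes summed to between 66.9 and 109 TPM in WT c-kit-, 8.76 and 21.2 TPM in WT c-kit+, and to 8.85, 57.3 and 8.11 TPM among the labelled knockout libraries, where library 2, also the highest for Cybb and Irf8, held Flt3 at 56.9 TPM. Progenitor genes summed to between 505 and 571 TPM in WT c-kit-, 611 and 717 TPM in WT c-kit+, and 805 and 822 TPM among the labelled knockout libraries. Not every gene shared the rise of this sum. Between the WT groups 2 of the 6 rose and 2 fell at an adjusted p under 0.05 (median log2 fold change -0.21). The 2 that rose were Myb and Kit, and the rise of Kit was set by the sort on surface c-kit. Those that fell were Cd48, from a mean of 248 to 62.6 TPM, and Cd34, from 120 to 77.8 TPM. Between the c-kit+ groups 3 were higher in the labelled knockout libraries and 0 lower (median 0.43), with 0 past both thresholds. Over all genes 31.9% passed upward and 16.1% downward there, and 14% and 27.6% between the WT groups.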

How the data were processed

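The authors deposited 1 table of TPM for 9 libraries, with no header that names the unit. The unit was read off the library sums, each nearly 1000000. By the labels, libraries were made with an Illumina TruSeq RNA kit that does not mark strand, and the study's text calls the assay a microarray. The aligner, quantifier and genome build are not given in the sources used here, nor is whether strand was used. TPM fall for all other genes when a few abundant genes rise in a library, and the 10 most abundant genes held 9.88 to 10.3% of the total in WT c-kit-, 13.1 to 17.3% in WT c-kit+ and 9.39 to 9.57% in the labelled knockout libraries. TPM keep no depth, so the depth is unknown and no counting interval or floor is given.

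Value columns were matched to their samples by name, apart from that of WT c-kit+ library 3. The name of that column ends in an extra digit, and it was given to that library because it matches no other sample. Of 55536 gene identifiers, 55450 are in GENCODE M21 on GRCm38, from which coordinates and shared 50-base stretches of transcripts were computed. Tests used limma 3.58.1 in R 4.3.3 (lmFit, eBayes with trend) on log2(TPM + 1), over genes that reached 1 TPM in 3 or more of the 6 libraries. Each pair of groups was fitted alone with Benjamini-Hochberg adjustment over all genes tested. A gene passed the test at an adjusted p under 0.05, and was past both thresholds where its log2 fold change was also 1 or more in size. Exact permutation tests were two-sided. The fits were tested on simulated data. Python 3.11.15 with pandas 2.3.3, numpy 2.4.6, scipy 1.17.1 and matplotlib 3.10.9 was used for the rest.

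The 7 genes, the gene lists and the tests were chosen with earlier results of these data known. Named beside the 7 genes are, of each list, the 3 genes of at least 10 TPM in some group mean with the largest log2 fold change in any comparison, the 2 genes with the most similar profile, and Irf7 and Kit as checks of the labels. A listed gene is not reported here. Other named genes were picked with their values in view and are marked so, apart from genes near 0 and members of marker lists. Alternatives were quantile normalization, median centring, leaving out each library, a filter at 5 TPM or none, 0.1 as the pseudocount, 1 fit over all 9 libraries, eBayes with no trend, and a block for the replicate number.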

Additional observations from a re-analysis of the deposited data

How the results depend on the processing

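The 7 genes were refitted under 14 alternatives in each of 3 comparisons, 294 values in all, of which 257 kept their direction and their side of an adjusted p of 0.05, 19 lost the test, 6 gained it and 12 changed sign, all of them for Cyba. Cyba between the WT groups became 0.0216 with quantile normalization and 0.0740 with median centring, and ran from -0.154 to 0.00957 with 1 library left out. From WT c-kit+ to the labelled knockout libraries it became -0.0252 and -0.0155, and ran from -0.0161 to 0.146. From WT c-kit- it became 0.00787 and 0.0615, and ran from -0.0877 to 0.0755. Without a filter on low values, where 25743 genes share the adjustment in place of 13261, the members past the test between the WT groups numbered 2 in place of 4, and with 1 library left out 2 to 5. Over the same alternatives Cybb from WT c-kit+ to the labelled knockout libraries ran from -4.12 to -3.41, with a limma adjusted p of 0.00456 at most. Ncf4 there ran from -1.09 to -0.88 and so crossed the size threshold of 1. With a filter of 5 TPM, 1015 genes were past both thresholds in that comparison in place of 1548, over 10231 genes tested in place of 13238. With 3 libraries a group and no depth, precision is known only from their spread.

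The replicate numbers were not treated as pairing the libraries, since the deviations of equal numbers from their group means correlated at -0.07 to 0.24 and not all were over 0.1. In the other direction, as a hint from the data and not from the design, 13 of 18 cases were closest to their own number. With the replicate block, 1950, 1549 and 2749 genes were past both thresholds in the 3 comparisons in place of 1916, 1548 and 2738. Cybb between the WT groups then passed the test (log2 fold change -0.33, limma adjusted p = 0.0206), which took the members past the test there from 4 to 5, and the block changed no other call among the 7 genes. It gave 2 members past both thresholds between the labelled knockout libraries and WT c-kit+ and 1 in each other comparison, as without it.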

Other observations

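Genes tied to the removal of superoxide and peroxide and to NADPH supply were read from lists of 20 and 14 genes. These lists are not limited to genes that serve the oxidase. Of the removal list, 18 genes were tested. From WT c-kit+ to the labelled knockout libraries 11 of them rose and 3 fell, with 1 past both thresholds. Their median log2 fold change there was 0.37, beside 0.12 over all genes tested, of which 31.9% passed upward and 16.1% downward. Between the WT groups 4 rose and 8 fell (1 and 3 past both, median -0.26), and from WT c-kit- to the labelled knockout libraries 9 rose and 4 fell (1 and 2 past both, median 0.17). Gsr, the glutathione reductase that itself uses NADPH, was at 340, 339 and 358 TPM in WT c-kit-, 1052, 1027 and 1091 TPM in WT c-kit+ and 604, 645 and 639 TPM among the labelled knockout libraries. Its groups did not overlap (log2 fold change 1.61 between the WT groups, limma adjusted p = 1.2e-05, and -0.75 from WT c-kit+ to the labelled knockout libraries, limma adjusted p = 0.000195). The peroxiredoxins Prdx1 and Prdx4, which reduce peroxides, fell with c-kit, from means of 210 to 75.3 TPM for Prdx1 (log2 fold change -1.48, limma adjusted p = 0.00033) and of 106 to 18.8 TPM for Prdx4 (log2 fold change -2.44, limma adjusted p = 4.92e-05).

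Of the NADPH supply genes, 12 were tested, and 6 rose and 3 fell between the WT groups (1 and 1 past both thresholds, median log2 fold change 0.31). From WT c-kit+ to the labelled knockout libraries 3 rose and 4 fell (1 and 1, median -0.11). From WT c-kit- to them 6 rose and 3 fell (0 and 2, median 0.28). The shares of all genes passing upward and downward were 14% and 27.6%, 31.9% and 16.1%, and 30.7% and 28.7% in that order. G6pdx, the first enzyme of the pentose phosphate pathway, was at 217, 188 and 233 TPM in WT c-kit-, 191, 133 and 183 TPM in WT c-kit+ and 75.7, 89.3 and 80.6 TPM among the labelled knockout libraries. The labelled knockout libraries lay below both other groups (log2 fold change from WT c-kit+ -1.03, limma adjusted p = 0.00175). Rpia, the ribose phosphate isomerase of that pathway, rose with c-kit from a mean of 52.2 to 121 TPM (log2 fold change 1.19, limma adjusted p = 5.06e-05), and Nadk, which makes NADP from NAD, was at 195 and 121 TPM there and at 91.8 TPM among the labelled knockout libraries (log2 fold change from WT c-kit- -1.05, limma adjusted p = 0.00262).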
